A study of Mus musculus with 2 samples.

Results

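The antioxidant enzymes described here are 49 genes of glutathione, peroxiredoxin, thioredoxin and oxidant defence, chosen by name from the 43346 Ensembl genes in the deposited gene tables, and all 49 were found. They cover 19 soluble glutathione transferases, 3 microsomal transferases, 4 genes of glutathione synthesis and recycling, 5 glutathione peroxidases, 6 peroxiredoxins with sulfiredoxin, 4 thioredoxins and thioredoxin reductases, 3 superoxide dismutases with catalase, and 3 genes of heme and quinone breakdown. The RNA came from the adrenal gland of a 10-week-old adult female C57BL/6J mouse, with no genetic change or treatment named in the labels, and polyadenylated RNA was sequenced. There was 1 group with 1 biological sample, measured in 2 technical replicate libraries, of which replicate 2 was made in 2015, after replicate 1. No spread between animals can be given, and library, date and preparation cannot be told apart.

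Superoxide, formed when electrons leak from a respiratory chain or from a cytochrome P450 enzyme, is turned into hydrogen peroxide by superoxide dismutases, and the peroxide is reduced by catalase, by glutathione peroxidases and by peroxiredoxins. Peroxiredoxins are recharged by thioredoxin and thioredoxin reductase, and glutathione peroxidases by glutathione, which glutathione reductase restores. The adrenal cortex makes steroids with P450 enzymes in mitochondria and endoplasmic reticulum, and the mitochondrial peroxiredoxin Prdx3 with its repair enzyme sulfiredoxin is known from the mouse adrenal as a regulator of corticosterone synthesis. Many genes of the set are known targets of the transcription factor Nrf2.

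Replicate 2 held 17376660 expected counts (estimated fragments, rounded per gene) and replicate 1 held 28267651. Mitochondrial genes took 10.6% of them in replicate 2 and 40.1% in replicate 1, and nuclear copies of those genes another 4.67% in replicate 2 and 13.0% in replicate 1. Levels are therefore given as nuclear TPM, which is the deposited TPM (a measure of abundance per transcript length) rescaled over the nuclear genes outside those copies, and 14716667 counts in replicate 2 and 13260900 in replicate 1 stood behind them. The labelled tissue carried its markers in both libraries. The steroidogenic genes Star (8744 nuclear TPM in replicate 2 and 11161 in replicate 1) and Hsd3b1 (18061 in replicate 2 and 16412 in replicate 1) were among the 3 highest nuclear genes of each library. Medullary markers summed to 7288 nuclear TPM in replicate 2 and 1940 in replicate 1, where Pnmt was at 0, and kidney markers to 0.617 in replicate 2 and 0.857 in replicate 1. Liver markers summed to 467.4 nuclear TPM in replicate 2 and 633.5 in replicate 1, of which Cyp2e1 alone gave 464.1 in replicate 2 and 632.1 in replicate 1. Adipocyte markers summed to 3911.5 nuclear TPM in replicate 2 and 2645 in replicate 1. Skeletal muscle markers summed to 523.0 in replicate 2 and 63.3 in replicate 1. The part of fat and muscle RNA in the levels below was not tested.

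Ratios between the libraries are of replicate 2 over replicate 1 after TMM scaling, a scaling that takes most genes as unchanged. A gene was called higher or lower in replicate 2 when an exact two-sided binomial test on its counts gave an adjusted p under 0.05 and the fold was at least 2, with Benjamini-Hochberg adjustment over the 14358 genes that reached 20 counts in the 2 libraries together. This test compares 2 libraries of 1 sample, and its 95% exact intervals cover counting error only. Ratios of all genes followed base composition closely (Pearson r 0.84 and Spearman rho 0.90 over 14311 genes with a GC value), so the ratios of named genes are also given with the GC trend removed. GC content was the mean over the transcripts of a gene weighted by their TPM, and where it is instead the mean over annotated transcripts this is said.

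Selenocysteine, the reactive residue of 5 of the enzymes, is written in their messages by a TGA codon that elsewhere ends translation. The codon is shown because it separates the peroxidases that carry selenium from Gpx7 and Gpx8, which have a cysteine codon at the matching place. Coordinates are on GRCm38, the sequences are coding bases of GENCODE M21 transcripts on the strand of the gene, and capitals mark the codon. The windows lie at chr9:108339430-108339474 (Gpx1, exon 1, plus strand), chr11:54907235-54907279 (Gpx3, exon 2, plus strand), chr10:80054716-80054760 (Gpx4, exon 3, plus strand), chr4:108403409-108403453 (Gpx7, exon 2, minus strand) and chr13:113045640-113045684 (Gpx8, exon 2, minus strand). The windows of the reductases lie at chr10:82896016-82896045 (Txnrd1, exon 14, plus strand) and chr16:18477751-18477780 (Txnrd2, exon 17, plus strand). In both, the TGA is followed by a glycine codon and then by the stop codon.
Gpx1: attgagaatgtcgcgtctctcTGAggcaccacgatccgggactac
Gpx3: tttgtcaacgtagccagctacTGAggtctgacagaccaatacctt
Gpx4: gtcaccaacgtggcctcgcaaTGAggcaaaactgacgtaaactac
Gpx7: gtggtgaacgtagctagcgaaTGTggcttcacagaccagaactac
Gpx8: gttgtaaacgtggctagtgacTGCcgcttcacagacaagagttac
Txnrd1: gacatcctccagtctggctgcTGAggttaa
Txnrd2: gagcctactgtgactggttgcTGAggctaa

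Base composition differed within families, and these 4 coding windows show it for the peroxiredoxin and the peroxidase of lowest and highest GC content. Each is the 60-base coding window whose GC share is nearest to that of its whole transcript, and capitals mark G and C. Prdx1 (chr4:116687424-116687483, exon 2, plus strand) has 26 of 60 and its transcript 43.5% GC. Prdx5 (chr19:6909525-6909584, exon 1, minus strand) has 35 of 60 and its transcript 58.3%. Gpx8 (chr13:113046310-113046369, exon 1, minus strand) has 27 of 60 and its transcript 44.3%. Gpx4 has 35 of 60 and its transcript 58.8%, and its window joins exons 1 and 2 within chr10:80053713-80054570 on the plus strand.
Prdx1: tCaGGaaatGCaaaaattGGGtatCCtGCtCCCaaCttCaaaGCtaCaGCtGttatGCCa
Prdx5: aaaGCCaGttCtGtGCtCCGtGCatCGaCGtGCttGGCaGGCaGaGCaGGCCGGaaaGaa
Gpx8: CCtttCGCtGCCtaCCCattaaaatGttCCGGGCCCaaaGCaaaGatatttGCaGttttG
Gpx4: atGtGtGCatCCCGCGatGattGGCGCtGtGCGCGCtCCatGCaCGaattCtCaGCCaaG

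The 49 genes together held 1.82% of nuclear TPM in replicate 2 and 1.66% in replicate 1 (mean 1.74% ± 0.109, SD, n = 2 libraries). Their levels ran from 0 to 2846 nuclear TPM in replicate 2 and from 0 to 5137 in replicate 1, and 40 of 49 reached a deposited TPM of at least 1 in both libraries, with 46 in replicate 2 and 40 in replicate 1. Gsta1, Gsta2 and Gstm3 stayed under 1 TPM in both and had too few counts to be tested. Among the 1000 highest nuclear genes were 19 of the 49 in replicate 2 and 11 in replicate 1. The 10 highest members of each library shared 6 names, Mgst1, Prdx1, Prdx3, Sod1, Cat and Txn2, and these 10 held 69.2% of the members' sum in replicate 2 and 88.3% in replicate 1. Over the 49 genes, log2(nuclear TPM + 1) of the libraries correlated with r 0.82 and rho 0.77, as a description of points that share 1 biological sample.

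**Figure D1:**
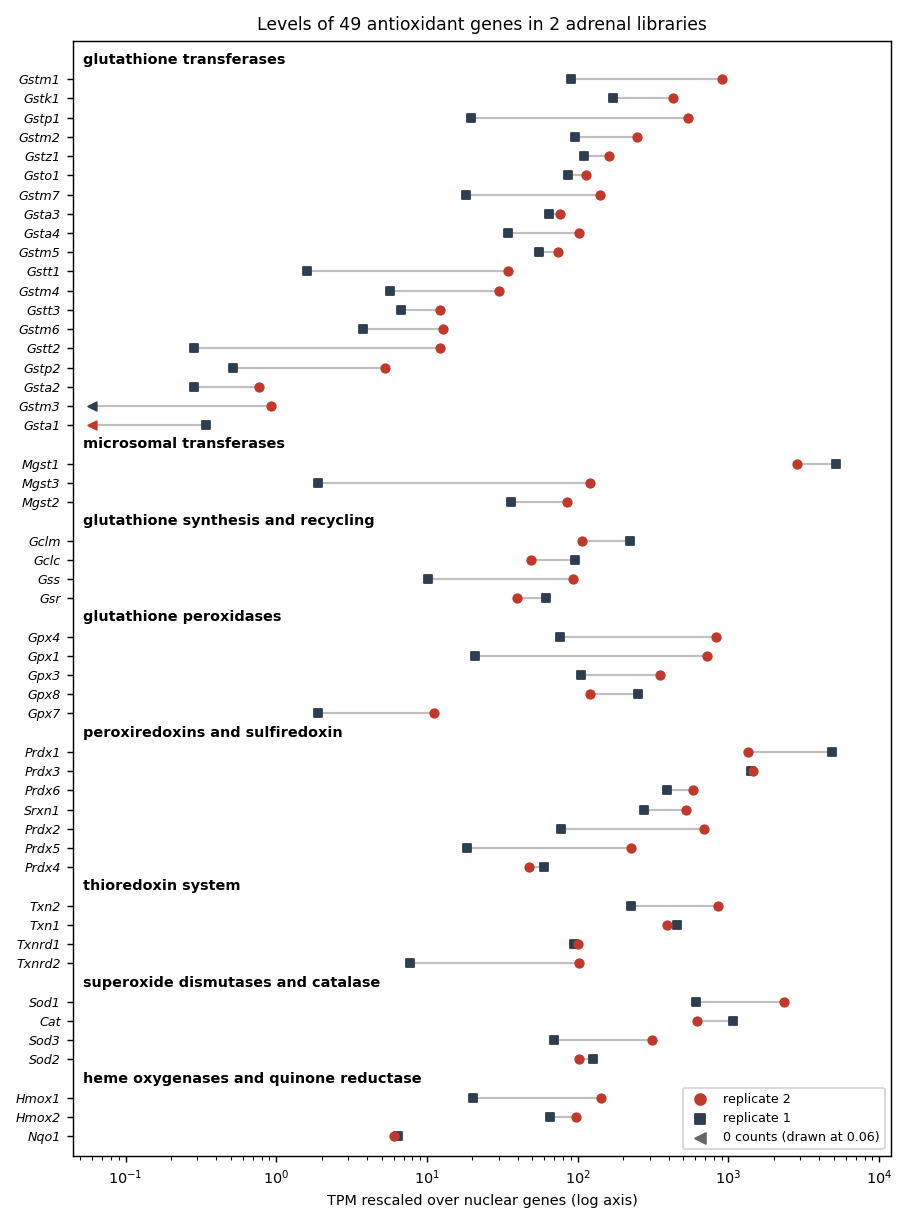
Nuclear TPM of each of the 49 genes on a log axis, grouped by role and ordered within a role by the mean of both libraries, with circles for replicate 2 and squares for replicate 1 and a triangle where a library had 0 counts. Mgst1 stands highest in both libraries (2846 in replicate 2 and 5137 in replicate 1), and the grey lines show the distance between the libraries, longest for Mgst3 among members with counts in both libraries.

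**Figure D2:**
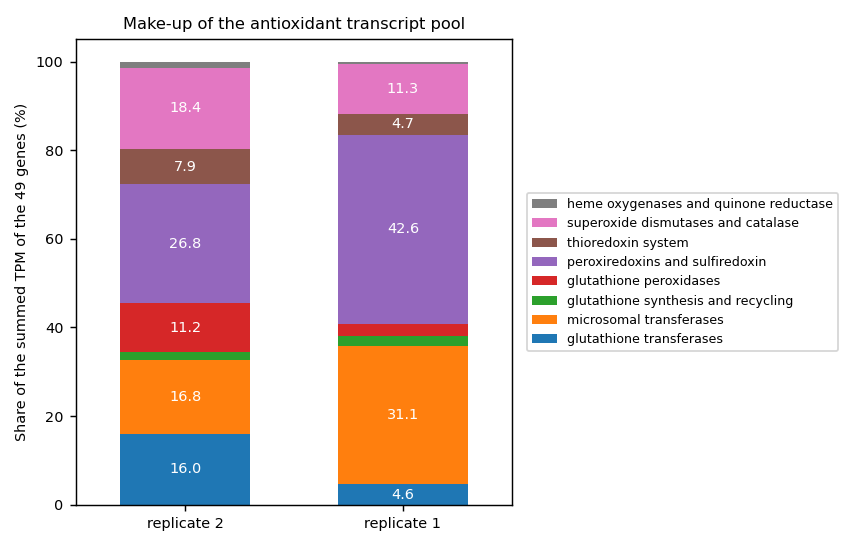
Share of the members' summed nuclear TPM held by each role, in percent, in replicate 2 (left bar) and replicate 1 (right bar). Peroxiredoxins with sulfiredoxin take 26.8% in replicate 2 and 42.7% in replicate 1, and soluble glutathione transferases 16.0% in replicate 2 and 4.59% in replicate 1.

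Of the 46 tested members, 24 were higher in replicate 2 (52.2%), 3 were lower (6.52%) and 19 were not called, beside 36.5% higher and 27.8% lower among all tested genes. Their median log2 ratio was 1.37, and that of all tested genes 0.10. With the GC trend of expressed transcripts removed, 17 members were higher (37.0%) and 0 lower, beside 11.6% and 11.3% of all genes, and the members' median was 0.65. With the mean GC over annotated transcripts in its place, 17 were higher and 2 lower (4.35%), beside 13.5% and 12.5% of all genes, and the median was 0.77. With only the length trend removed, 16 members were higher (34.8%) and 12 lower (26.1%), beside 31.1% and 33.9% of all genes. The members' median was then 0.09, and that of all genes -0.24. Those 12 lower calls were in Gsta3, Mgst1, Gclm, Gclc, Gsr, Gpx8, Prdx1, Prdx3, Prdx4, Txn1, Cat and Nqo1. With annotated GC and length trends both removed, 14 were higher (30.4%) and 2 lower (4.35%), beside 12.3% and 12.6% of all genes. The members' median was then 0.27. Of the 24 higher calls, 13 held under both corrections for GC alone, in Gpx1, Gsta4, Gstm1, Gstm4, Gstm7, Gstp1, Gstt1, Gstt2, Hmox1, Mgst3, Prdx2, Prdx5 and Txnrd2. None of the 3 lower calls, in Gclm, Gpx8 and Prdx1, held under either of these GC corrections. Scaling by total counts in place of TMM moved the median of all tested genes to 1.24, and then 36 members were higher and 0 lower.

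Soluble glutathione transferases join glutathione to reactive lipids, drugs and metabolites. In the 2 libraries 11 of 16 tested were higher in replicate 2 (68.8%) and 0 were lower, beside 36.5% and 27.8% of all tested genes. After removal of the GC trend of expressed transcripts 9 were higher (56.2%), beside 11.6% of all genes. With the length trend removed 6 were higher (37.5%) and 1 lower (6.25%), beside 31.1% and 33.9% of all genes. Gstm1, a mu-class enzyme, led them by mean level with 910.5 nuclear TPM in replicate 2 and 90.03 in replicate 1, which is 9.75-fold (interval 8.97 to 10.6). With the GC trend removed its log2 ratio was 1.67 in place of 3.29, still a higher call. Gstk1, the kappa-class enzyme of mitochondria and peroxisomes (chr6:42245935-42250447), had 426.1 nuclear TPM in replicate 2 and 170.7 in replicate 1. That was 2.44-fold in counts (2.25 to 2.65), and its log2 ratio was 1.29, or 1.01 and 0.93 after the 2 GC corrections, on either side of the 2-fold limit.

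Gstp1, the pi-class enzyme, had 542.8 nuclear TPM in replicate 2 and 19.7 in replicate 1. From 2367 counts in replicate 2 and 65 in replicate 1 its ratio was 26.8-fold (21.1 to 35.1), and its log2 ratio stayed at 2.02 with the GC trend removed, beside 4.74 without. Its neighbour Gstp2 had 23 counts in replicate 2 and 2 in replicate 1, a ratio of 6.96 with the wide interval 2.10 to 74.5. Its higher call ended under both GC corrections, with its log2 ratio of 2.80 at 0.76 and 0.81. Both lie on chromosome 19 within chr19:4035407-4046023. Their coding sequences of 633 bases are 98.1% identical, with 12 differing bases and 1 identical stretch of 303 bases, so reads of one can be counted for the other and both values carry that limit. A processed pseudogene, Gstp-ps, is also near-identical, with 2.63 expected counts in replicate 2 and 0 in replicate 1. The first 60 coding bases hold 6 of the differences, in capitals here, and span exons 1 to 3 on the minus strand at chr19:4037374-4037863 for Gstp1 and chr19:4041668-4042165 for Gstp2.
Gstp1: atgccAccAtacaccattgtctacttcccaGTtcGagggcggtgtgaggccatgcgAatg
Gstp2: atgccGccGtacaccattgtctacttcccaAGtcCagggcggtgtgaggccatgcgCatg

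The 7 mu-class genes form 1 cluster at chr3:107895821-108044894, in the order Gstm5, Gstm7, Gstm6, Gstm3, Gstm2, Gstm1 and Gstm4. Gstm1 stood above Gstm2 by 3.68-fold per length in replicate 2, and the order was turned in replicate 1, where the ratio of Gstm1 to Gstm2 was 0.944. Gstm2 had 247.7 nuclear TPM in replicate 2 and 95.3 in replicate 1, with a log2 ratio of 1.46, or 0.74 with the GC trend removed, when it was no longer called. Gstm3, the neighbour of Gstm2, had 0.925 nuclear TPM in replicate 2 and 0 in replicate 1, from 8 counts in replicate 2 and 0 in replicate 1. Named after their values were seen, Gstm7 (139.5 nuclear TPM in replicate 2 and 18.2 in replicate 1) and Gstm4 (30.1 in replicate 2 and 5.72 in replicate 1) kept their higher calls under both GC corrections. With the GC trend of expressed transcripts removed their log2 ratios were 1.52 and 1.48.

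Among alpha-class genes, Gsta4, which handles the lipid peroxidation product 4-hydroxynonenal, had 101.4 nuclear TPM in replicate 2 and 34.5 in replicate 1. Its ratio was 2.87-fold (2.41 to 3.46), and the log2 value of 1.52 was 1.55 with the GC trend removed. It was 0.01 with the length trend removed and 0.99 with both removed, and then no longer called. Gsta3, which in the mouse takes part in glutathione conjugation and whose human relative isomerises steroid precursors, had 76.5 nuclear TPM in replicate 2 and 64.3 in replicate 1. Its log2 ratio of -0.06 was not called and became 1.01 with the GC trend removed, a higher call. With the length trend removed it was -1.29, a lower call, and with both removed 0.94, uncalled. Gsta4 thus stood above Gsta3 in replicate 2 (ratio 1.33) and below it in replicate 1 (0.536). Gsta1 (0 counts in replicate 2 and 1 in replicate 1) and Gsta2 (4 in replicate 2 and 1 in replicate 1) are 97.2% identical to each other and share a further copy, Gm10639, so their few counts cannot be assigned with certainty.

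Other soluble transferases ran from the zeta-class Gstz1, an enzyme of tyrosine breakdown, with 160.5 nuclear TPM in replicate 2 and 109.5 in replicate 1 (log2 ratio 0.52, then 0.29 with the GC trend removed), down to the theta-class genes on chromosome 10. Like Gstz1 named after their values were seen, Gstt1 (224 counts in replicate 2 and 8 in replicate 1) and Gstt2 (110 in replicate 2 and 2 in replicate 1) had ratios of 19.6-fold (10.3 to 48.6) and 32.7-fold (11.0 to 340.5). Both kept their call with the GC trend removed, at log2 ratios of 2.38 and 2.43. Gstt3, in the same cluster at chr10:75774115-75837424, had 155 counts in replicate 2 and 62 in replicate 1 and was not called (log2 ratio 0.88, then -0.14).

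Microsomal glutathione transferases are membrane proteins that also reduce lipid peroxides. Mgst1 (chr6:138140316-138156755) was the highest of all 49 genes in each library and ranked 15th among nuclear genes in replicate 2 and 7th in replicate 1. It had 2846 nuclear TPM in replicate 2 and 5137 in replicate 1, and it alone made up 15.7% of the members' sum in replicate 2 and 30.9% in replicate 1. By counts the libraries lay closer, with 16205 in replicate 2 and 17200 in replicate 1, a fold of 0.698 (0.683 to 0.713) that was not called. Its log2 ratio was -0.52, and 0.47 with the GC trend removed. With the length trend removed it was -2.10, a lower call, and with both removed -0.23, uncalled. Mgst3 was the opposite case, with 838 counts in replicate 2 and 10 in replicate 1, or 120.1 nuclear TPM in replicate 2 and 1.89 in replicate 1. Its 59.1-fold ratio (33.6 to 129.9; adjusted p = 2.46e-182 by the binomial test) is the highest among the 46 tested members, and at 50.9% GC removal of the trend left a log2 ratio of 5.39 of 5.89. Mgst2 had 85.3 nuclear TPM in replicate 2 and 35.9 in replicate 1, and its log2 ratio was 0.65, or 1.24 and called higher with the GC trend removed. Mgst1 thus exceeded Mgst3 by 23.7-fold in replicate 2 and 2723-fold in replicate 1.

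Glutathione is made by glutamate-cysteine ligase, with the catalytic subunit Gclc and the modifier Gclm, and by glutathione synthetase Gss, and is kept reduced by glutathione reductase Gsr. Gclm had 107.0 nuclear TPM in replicate 2 and 222.7 in replicate 1, a fold of 0.357 (0.335 to 0.379) and the lowest ratio among the tested members. Gclc had 48.8 nuclear TPM in replicate 2 and 95.6 in replicate 1, and its fold of 0.501 lay just inside the 2-fold limit, so it was not called. In TPM the ligase subunits kept their ratio to each other, with 0.457 Gclc per Gclm in replicate 2 and 0.429 in replicate 1. This was the smallest movement of the 12 family ratios computed. By counts the ratio was not kept, with 1215 for Gclc and 1532 for Gclm in replicate 2, and 1797 and 3182 in replicate 1. The transcripts assigned to Gclm also differed, with the 1002-base Gclm-206 at 46.6% of its TPM in replicate 2 and 0% in replicate 1. Both subunits had near-equal GC content, 47.7% for Gclc and 47.1% for Gclm. With the GC trend removed Gclm stood at -0.90 and Gclc at -0.54 on the log2 scale, and neither was called.

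Gss went the other way, with 93.1 nuclear TPM in replicate 2 and 10.1 in replicate 1, a fold of 9.86 (8.03 to 12.4). Its GC content was 55.1%, and its log2 ratio of 3.30 became 0.93 with the trend of expressed transcripts removed and 2.07 with the trend of the annotated mean, so the call rested on which GC value was used. Gsr, the lowest of these genes by mean level, had 39.7 nuclear TPM in replicate 2 and 61.5 in replicate 1 and was not called at a fold of 0.623, nor at a log2 ratio of -0.93 with the GC trend removed.

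Glutathione peroxidases were the role in which each tested member was called before GC correction, with 4 of 5 higher (80%) and 1 lower (20%) in replicate 2. Among all tested genes 36.5% were higher and 27.8% lower. After the correction 1 of 5 remained called, higher, beside 11.6% higher among all genes. Gpx4, the phospholipid peroxidase known as the main brake on ferroptosis, had 820.4 nuclear TPM in replicate 2 and 75.8 in replicate 1, a fold of 16.5 (14.4 to 19.04). With 58.4% GC it was the member of highest GC content, and its log2 ratio of 4.04 became 0.05 with the GC trend removed. Gpx1, the cytosolic and mitochondrial enzyme, had 721.7 nuclear TPM in replicate 2 and 20.9 in replicate 1, a fold of 29.96 (24.5 to 37.5). At 56.2% GC it kept a log2 ratio of 1.97 after the same correction and remained a higher call. Gpx1 stood at 0.880 of Gpx4 in replicate 2 and 0.276 in replicate 1.

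Gpx3, the secreted peroxidase, had 352.4 nuclear TPM in replicate 2 and 105.5 in replicate 1, a log2 ratio of 1.98 that was -0.84 with the GC trend removed. Gpx8, a membrane enzyme of the endoplasmic reticulum with the cysteine codon shown above, had 120.2 nuclear TPM in replicate 2 and 250.3 in replicate 1, a fold of 0.470 (0.429 to 0.515). Its GC content of 44.3% was the lowest of the family, and its log2 ratio of -1.09 became 0.11. Gpx7, its relative in the same compartment, was the least abundant with 11.1 nuclear TPM in replicate 2 and 1.89 in replicate 1, and had 2.48 on the log2 scale before and -0.12 after the correction. The 3 selenium peroxidases were thus the higher group in replicate 2, while in replicate 1 Gpx8 stood above all 3 of them.

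Peroxiredoxins and sulfiredoxin formed the largest role in each library, with 4858 nuclear TPM in replicate 2 and 7087 in replicate 1. Prdx1, the abundant cytosolic enzyme, had 1353 nuclear TPM in replicate 2 and 4864 in replicate 1. Its counts were 11170 in replicate 2 and 18544 in replicate 1, a fold of 0.446 (0.436 to 0.457). At 43.4% GC its log2 ratio of -1.16 became 0.21 with the GC trend removed, and it was no longer called.

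Prdx3, the mitochondrial peroxiredoxin, was close to equal in both libraries, with 1446 nuclear TPM in replicate 2 and 1402 in replicate 1 (fold 1.01, interval 0.985 to 1.04, adjusted p = 0.478 by the binomial test). It ranked 3rd among the 49 genes in each library. With the GC trend removed its log2 ratio was 0.99, just under the 2-fold limit, so its near-equality depended on the scale. Srxn1, the sulfiredoxin that repairs overoxidised peroxiredoxins, had 521.3 nuclear TPM in replicate 2 and 274.3 in replicate 1. It was not called at a fold of 1.85 (1.78 to 1.92), and its log2 ratio of 0.89 was -0.63 with the GC trend of expressed transcripts removed and -1.75, a lower call, with that of the annotated mean. Prdx6, which also has phospholipase activity, had 580.0 nuclear TPM in replicate 2 and 390.1 in replicate 1 and was not called (log2 ratio 0.55, then 0.14). Its coding transcript Prdx6-202 held 18.3% of the gene's TPM in replicate 2 and 5.60% in replicate 1. Prdx6-208, annotated for nonsense-mediated decay, held 42.1% in replicate 2 and 80.7% in replicate 1.

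Prdx2, the peroxiredoxin that is abundant in red blood cells, had 684.8 nuclear TPM in replicate 2 and 78.0 in replicate 1, a fold of 9.35 (8.53 to 10.3). Its log2 ratio was 3.22, and 2.69 with the GC trend removed, the second highest corrected value among the tested members after Mgst3. The 5 erythroid markers, all present in both libraries, summed to 4823 nuclear TPM in replicate 2 and 281.5 in replicate 1, and Hba-a2 among them, an alpha globin gene with a close copy, had 12.7-fold more in replicate 2, with a log2 ratio of 0.40 after GC correction. Their part in the Prdx2 difference was not tested. In bulk RNA a lower marker level does not tell fewer cells of a type from less RNA per cell, and both libraries are of 1 biological sample. Prdx5, found in mitochondria, peroxisomes and cytosol, had 225.5 nuclear TPM in replicate 2 and 18.4 in replicate 1, a fold of 28.5 (21.1 to 40.5), and kept a log2 ratio of 1.49 of 4.83. Prdx4, the enzyme of the secretory pathway and the lowest of the role, had 47.4 nuclear TPM in replicate 2 and 60.1 in replicate 1 and was not called (log2 ratio -0.37, then -0.74). Prdx1 exceeded Prdx2 by 1.98-fold in replicate 2 and 62.4-fold in replicate 1, and Prdx3 exceeded Prdx5 by 6.41-fold in replicate 2 and 76.2-fold in replicate 1.

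In the thioredoxin system the mitochondrial pair was higher in replicate 2 and the cytosolic pair was not called. Txn2, the mitochondrial thioredoxin, had 849.8 nuclear TPM in replicate 2 and 226.5 in replicate 1 (fold 3.75, interval 3.54 to 3.98). Txn1, the cytosolic thioredoxin, had 388.8 nuclear TPM in replicate 2 and 452.7 in replicate 1 (fold 0.840, interval 0.794 to 0.889). Txnrd1, the cytosolic reductase, had 99.9 nuclear TPM in replicate 2 and 93.8 in replicate 1 (fold 1.04, interval 0.981 to 1.11). Txnrd2, the mitochondrial reductase, had 102.7 nuclear TPM in replicate 2 and 7.66 in replicate 1 (fold 22.4, interval 16.5 to 32.0).

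Base composition moved with that split, since Txn2 and Txnrd2 had 55.8% and 56.1% GC, and Txn1 and Txnrd1 had 47.2% and 48.9%. With the GC trend removed, Txn2 stood at -0.82 on the log2 scale and was not called, while Txnrd2 stood at 1.61 and remained higher. Txn1 stood at 0.33 and Txnrd1 at 0.18, both uncalled. With only the length trend removed Txn1 was called lower at -1.70 and Txn2 was uncalled at 0.67. The ratio within each pair differed between the libraries, with 0.457 Txn1 per Txn2 in replicate 2 and 2.00 in replicate 1. There were 0.973 Txnrd1 per Txnrd2 in replicate 2 and 12.3 in replicate 1. In replicate 2 the deposited TPM intervals of the reductases overlapped (55.0 to 59.5 for Txnrd1 and 57.6 to 68.2 for Txnrd2), so no order is shown there.

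Superoxide dismutases and catalase begin and end the peroxide pathway. Sod1, the cytosolic copper and zinc enzyme, had 2317 nuclear TPM in replicate 2 and 604.5 in replicate 1, a fold of 3.74 (3.54 to 3.95), and was the second highest member in replicate 2. Its log2 ratio of 1.90 was 0.48 with the GC trend of expressed transcripts removed and 2.16 with that of the annotated mean, and its GC content was 53.2% by the first measure and 48.4% by the second. Cat, the peroxisomal catalase, had 616.0 nuclear TPM in replicate 2 and 1072 in replicate 1, and at a fold of 0.563 (0.550 to 0.577) it was not called. Its log2 ratio of -0.83 was -0.65 with the GC trend of expressed transcripts removed and -1.13, a lower call, with that of the annotated mean. Sod3, the extracellular enzyme, had 311.7 nuclear TPM in replicate 2 and 69.9 in replicate 1, a log2 ratio of 2.13 that was 0.92 after correction. Sod2, the mitochondrial manganese enzyme, had 102.5 nuclear TPM in replicate 2 and 126.6 in replicate 1. With 42.2% GC, the lowest of the members, its log2 ratio of -0.33 became 1.23, a higher call, under the trend of expressed transcripts. Under the trend of the annotated mean it stayed at -0.27, uncalled. Sod1 exceeded Sod2 by 22.6-fold in replicate 2 and 4.77-fold in replicate 1.

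Heme oxygenases open the heme ring, with Hmox1 as the inducible and Hmox2 as the constitutive enzyme. Hmox1 had 142.9 nuclear TPM in replicate 2 and 20.2 in replicate 1, a fold of 6.97 (5.95 to 8.26), and kept a log2 ratio of 1.34 with the GC trend removed. With GC and length trends both removed its log2 ratio was 0.99, and it was no longer called. Macrophages, which break down heme, had 5 markers that summed to 588.4 nuclear TPM in replicate 2 and 173.1 in replicate 1, none at 0, and their part in the Hmox1 value was not tested. Hmox2 had 96.6 nuclear TPM in replicate 2 and 65.9 in replicate 1 and was not called (log2 ratio 0.78, then 0.27). There were 0.676 Hmox2 per Hmox1 in replicate 2 and 3.25 in replicate 1. Nqo1, the quinone reductase and a widely used Nrf2 target, was low in both libraries, with 6.00 nuclear TPM in replicate 2 and 6.46 in replicate 1, from 63 counts in replicate 2 and 51 in replicate 1 (log2 ratio -0.13, then 0.56).

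Across the 46 tested members the log2 ratio followed GC content, with r 0.79 and rho 0.84, given as a description since all points share the same 2 libraries. The 6 members under 46% GC held 0 higher and 2 lower calls, with a median log2 ratio of -0.43 beside -1.49 for all genes of that range. The 12 members at 54% GC or above were higher in 12 of 12 cases, with a median of 4.17 beside 3.24 for the 4129 genes of that range. As that median itself lay above the 2-fold limit, these calls do not set the members apart from genes of like GC content. Between them, 8 members at 46 to 50% had a median of -0.19 beside -0.40, and 20 members at 50 to 54% had 1.37 beside 0.86. In each of the 4 ranges the members' median lay above that of all genes, but the ranges were not matched further for GC or length. The 6 members under 46% lay at 42.2 to 45.5%, while all genes of that range reached lower GC content. With annotated GC and length trends both removed, the members' median was 0.27 beside 0.00 for all genes.

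**Figure D3:**
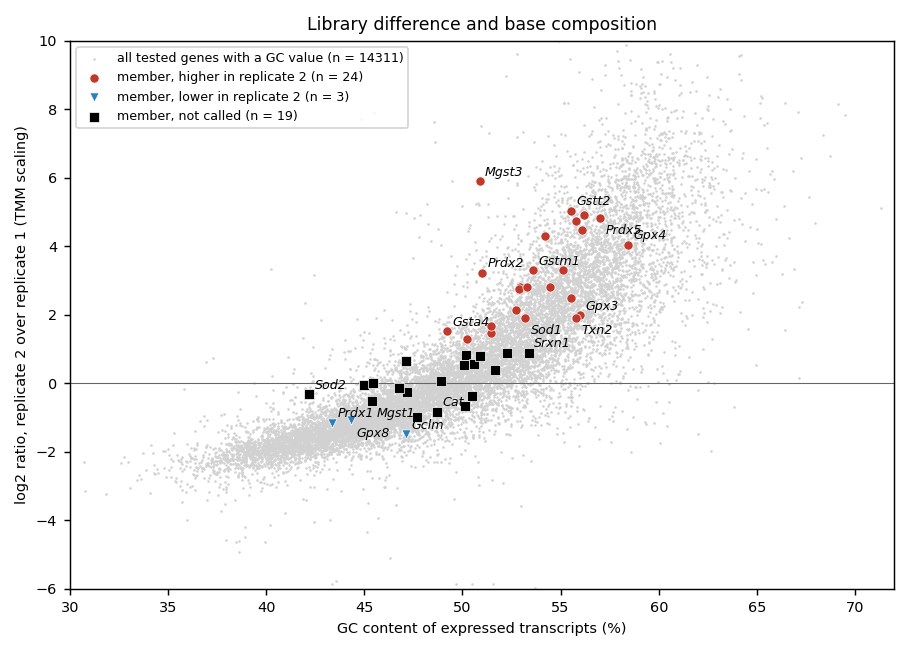
Log2 ratio of replicate 2 over replicate 1 against GC content of expressed transcripts, with 14311 genes in grey (32 lie outside the axes) and the 46 tested members as red circles (higher), blue triangles (lower) and black squares (not called). Mgst3 at 50.9% GC lies far above the grey band, and Gpx4 at 58.4% lies within it.

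**Figure D4:**
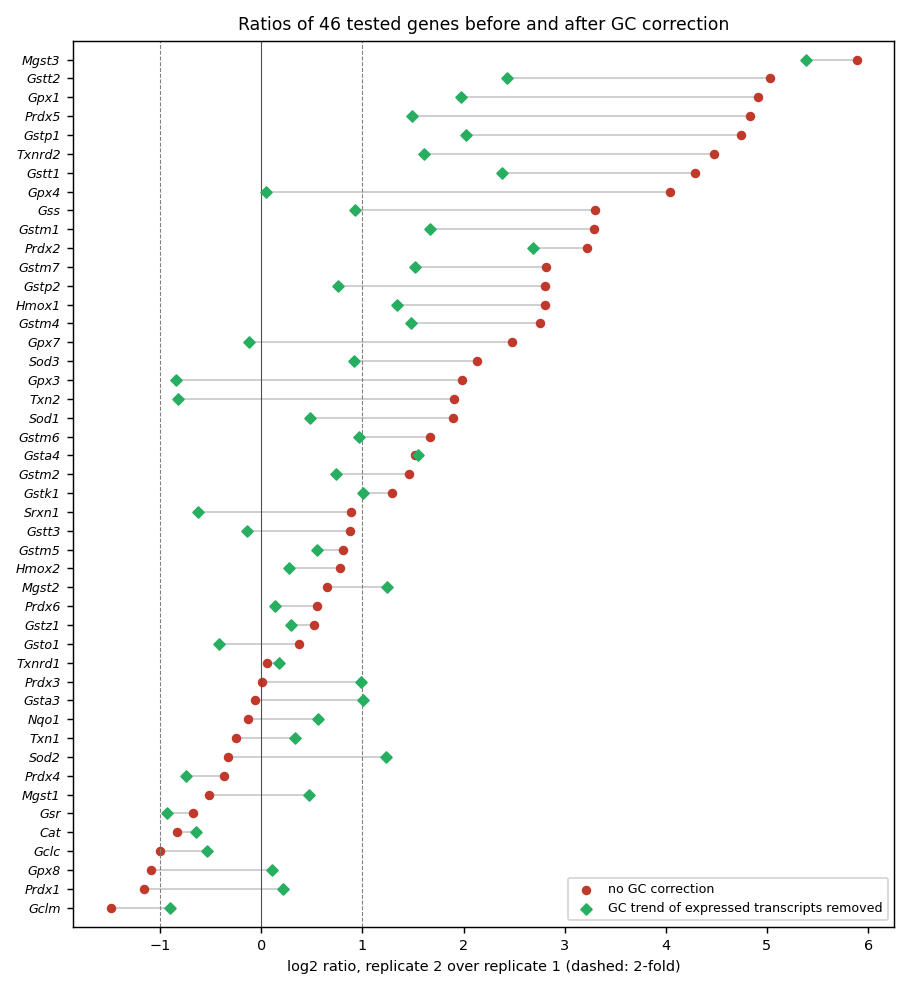
Log2 ratio of each of the 46 tested members before (circles) and after (diamonds) removal of the GC trend of expressed transcripts, ordered by the first value, with dashed lines at 2-fold. Mgst3 moved little (5.89 before and 5.39 after), while Gpx4 (4.04 and 0.05) and Txn2 (1.91 and -0.82) moved across a wide range.

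Transcript shares within a gene differed as well. Of 28 members with several transcripts and at least 20 counts in both libraries, 9 had different leading transcripts, namely Gclm, Gpx4, Gss, Gstm4, Gstm5, Mgst1, Prdx2, Prdx5 and Txnrd2. In 8 of these, all but Prdx2, the transcript leading in replicate 2 had the higher GC content. No share over all genes with several transcripts is given beside these counts, so they do not set the members apart. At a minimum of 100 counts, a limit added after the data were seen, 5 differed.

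Mgst1 had the most counts among them. Its 742-base transcript Mgst1-207, with 41.6% GC, held 6.10% of the gene's TPM in replicate 2 and 94.4% in replicate 1. The 1167-base Mgst1-201, with 45.3% GC, held 58.8% in replicate 2 and 4.90% in replicate 1, and the 559-base Mgst1-204, with 51.3% GC, held 34.5% in replicate 2 and 0% in replicate 1. The gene counts of Mgst1 thus differed little, while the transcripts to which they were assigned differed almost completely. Gpx4-202, a 959-base transcript, held 86.2% of Gpx4 in replicate 2 and 0% in replicate 1, where 209 counts in all were assigned to the gene.

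Transcript length also entered the TPM of Prdx1. The 611-base Prdx1-205 held 53.6% of the gene's TPM in replicate 2 and 85.6% in replicate 1, and the 2294-base Prdx1-204 held 37.4% in replicate 2 and 13.8% in replicate 1. The distance between the libraries for Prdx1 was accordingly wider in nuclear TPM than in counts.

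**Figure D5:**
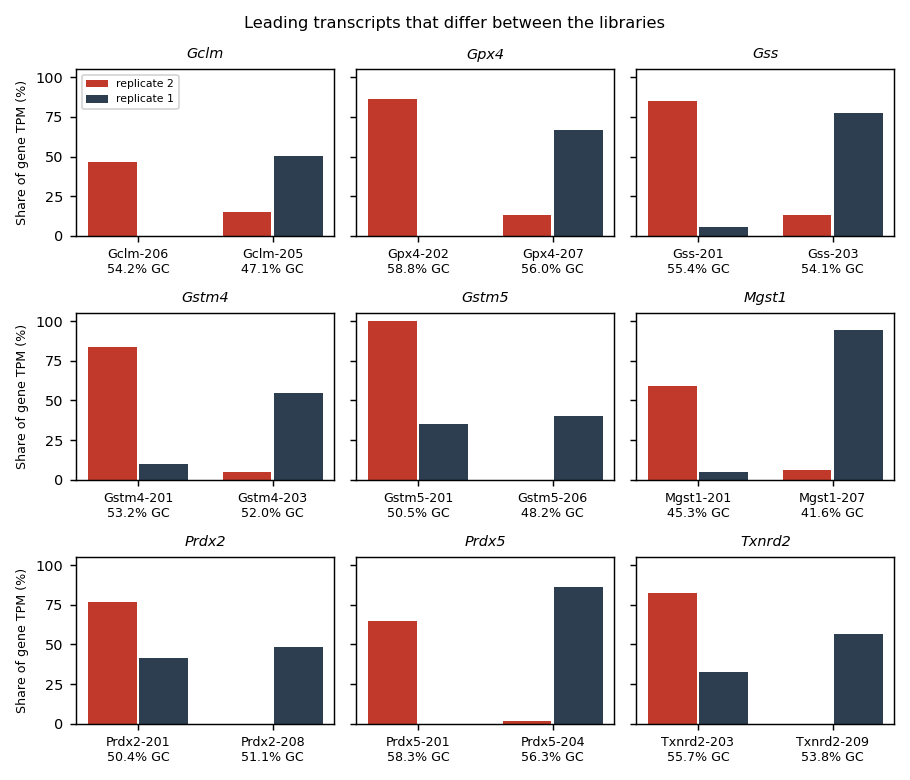
Share of the gene's TPM, in percent, of the transcript leading in replicate 2 (left pair of bars in each panel) and of the one leading in replicate 1 (right pair), for the 9 genes in which they differ, with red bars for replicate 2, dark bars for replicate 1 and the GC content of each transcript under its name. Mgst1-207 has 6.10% in replicate 2 and 94.4% in replicate 1.

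Promoters of the members were searched for TGACNNNGC, the core of the antioxidant response element bound by Nrf2, on both strands of the 300 bases that run from 250 before the start to 50 after it (RefSeq, GRCm38.p6). Of 42 members with a promoter in the table, 9 held it (21.4%), beside 14.0% of 27025 genes, and by promoter 9 of 57 (15.8%) beside 12.4% of 32851. A match is a description of letters and not a bound site. The 9 windows are shown because they place the motif in members described above, with the motif in capitals and 10 bases on each side, read on the strand that carries it. They lie at chr3:122245413-122245441 (Gclm, minus strand), chr1:21240454-21240482 (Gsta3, plus), chr3:107895802-107895830 (Gstm5, plus), chr3:107931725-107931753 (Gstm7, minus), chr6:138140461-138140489 (Mgst1, minus), chr4:116685456-116685484 (Prdx1, minus), chr16:90220696-90220724 (Sod1, minus), chr2:152105542-152105570 (Srxn1, minus) and chr10:82859104-82859132 (Txnrd1, minus).
Gclm: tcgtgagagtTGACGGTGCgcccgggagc
Gsta3: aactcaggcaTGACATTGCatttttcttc
Gstm5: caccgcccacTGACCACGCggagggcggg
Gstm7: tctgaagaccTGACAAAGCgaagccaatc
Mgst1: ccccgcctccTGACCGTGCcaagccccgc
Prdx1: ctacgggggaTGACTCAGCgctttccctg
Sod1: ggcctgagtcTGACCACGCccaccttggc
Srxn1: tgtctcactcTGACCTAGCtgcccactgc
Txnrd1: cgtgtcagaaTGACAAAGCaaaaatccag
Relative to the RefSeq start of each promoter, the Srxn1 match lies after the start and the others before it. These starts can differ from the GENCODE gene bounds, and the matches of Mgst1, Txnrd1 and Gstm7 lie inside those bounds. Of the 9 genes, Gstm7 and Sod1 were called higher in replicate 2 and Gclm and Prdx1 lower, and the other 5 were not called. Among all tested genes 36.5% were higher and 27.8% lower. With the GC trend of expressed transcripts removed Gstm7 stayed higher and Gsta3 became a higher call. Gclm, Prdx1 and Sod1 were then not called, nor were the remaining genes of the 9.

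Beyond the members, 54 of 55 listed genes of the pathway were found and 49 could be tested, with 21 higher (42.9%) and 12 lower (24.5%) in replicate 2, beside the 36.5% and 27.8% of all genes. With the GC trend of expressed transcripts removed, 9 of 48 were higher (18.8%) and 6 lower (12.5%), beside 11.6% and 11.3%. The group of Nrf2 control genes, which includes the Nrf2 gene Nfe2l2 itself, had 5 higher (50%) and 2 lower (20%) calls of 10 before the correction. Among all genes 36.5% were higher and 27.8% lower. After it the group had 0 higher and 4 lower (40%), beside 11.6% and 11.3%. Their 3 most abundant were the autophagy adaptor Sqstm1 (1209 nuclear TPM in replicate 2 and 978.5 in replicate 1), the ubiquitin ligase scaffold Cul3 (127.1 in replicate 2 and 570.7 in replicate 1) and the Nrf2 relative Nfe2l1 (472.1 in replicate 2 and 120.4 in replicate 1). None of these 3 was called after the correction, at log2 ratios of -0.31, -0.28 and 0.46. The 4 lower calls after it were in Mafg (-2.23), Keap1 (-1.95), Mafk (-1.24) and Maff (-2.36).

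For glutathione supply and transport 8 of 14 tested were higher (57.1%) and 4 lower (28.6%), beside 36.5% and 27.8% of all genes. After the correction 3 were higher (21.4%) and 2 lower (14.3%), beside 11.6% and 11.3%. Slc25a39, the carrier that brings glutathione into mitochondria, led with 474.2 nuclear TPM in replicate 2 and 14.4 in replicate 1, and its log2 ratio of 6.42 was 1.94 and still called. Slc3a2, the heavy chain of the cystine and other amino acid transporters, had 158.9 nuclear TPM in replicate 2 and 53.1 in replicate 1 (log2 ratio 1.56, then -0.96). The glutathione-degrading enzyme Chac2 had 14.0 nuclear TPM in replicate 2 and 57.8 in replicate 1 (log2 ratio -2.08, then 0.05).

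Glutaredoxins and further thioredoxin proteins had 1 higher (11.1%) and 2 lower (22.2%) calls of 9, beside 36.5% and 27.8% of all genes. After the correction they had 2 (22.2%) and 0, beside 11.6% and 11.3%. The 3 most abundant were Txnip, which binds thioredoxin, with 522.1 nuclear TPM in replicate 2 and 313.8 in replicate 1, Glrx5 of iron-sulfur cluster assembly with 329.2 in replicate 2 and 252.8 in replicate 1, and Glrx3 with 102.0 in replicate 2 and 234.9 in replicate 1. Only Glrx3 of these 3 was called, lower at a log2 ratio of -1.23, and it stood at -0.44 after the correction. Of 7 selenoprotein synthesis genes 2 were higher (28.6%) and 1 lower (14.3%), beside 36.5% and 27.8% of all genes. After the correction they had 1 (14.3%) and 0, beside 11.6% and 11.3%. Sephs2, which makes the selenium donor, had 89.6 nuclear TPM in replicate 2 and 44.1 in replicate 1. Its log2 ratio was 0.99, and 0.02 with the GC trend removed. Its relative Sephs1 had 41.0 nuclear TPM in replicate 2 and 66.2 in replicate 1 (log2 ratio -0.71, then -0.17). The kinase Pstk, which acts on the selenocysteine transfer RNA, had 26.6 in each library (log2 ratio -0.40, then 0.01).

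Further family members had 5 higher (55.6%) and 3 lower (33.3%) calls of 9 tested, beside 36.5% and 27.8% of all genes. After the correction they had 3 (37.5%) and 0 of 8, beside 11.6% and 11.3%. Ccs, the copper chaperone that loads Sod1, had 155.7 nuclear TPM in replicate 2 and 1.77 in replicate 1, from 1038 counts in replicate 2 and 9 in replicate 1. Its fold was 81.0 (44.8 to 187.3), and with the GC trend removed its log2 ratio was 3.25 of 6.34, while that of Sod1 itself was 0.48. The quinone reductase Nqo2 had 44.9 nuclear TPM in replicate 2 and 118.9 in replicate 1, and its lower call at -1.43 was not kept at -0.01. Ptges2, a prostaglandin E synthase, had 62.0 nuclear TPM in replicate 2 and 4.46 in replicate 1, and stayed called at 1.69.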

How the data were processed

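Gene and transcript tables of 2 technical replicate libraries of 1 adrenal gland sample were used. The deposited expected counts are fragment numbers estimated for each gene or transcript, often with decimals. The deposited TPM and FPKM values stand beside them per the file headers, and FPKM was used only for 1 alternative count of detected genes. Posterior mean TPM and its interval bounds, treated as a score, come from the deposited tables and served 1 alternative. Transcript shares are the deposited percent of a gene's abundance. Per the deposited notes, mm10 and GENCODE annotation M4 were used, while aligner, counter and strand setting were not given in the sources used here. All 26345 rows that are not Ensembl genes held 0 counts and were left out.

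Expected counts were rounded and scaled with TMM (edgeR 4.0.16, R 4.3.3), with a prior count of 0.5 in log2 ratios, and tested by the exact binomial test (scipy 1.17.1). The quasi-likelihood test of edgeR needs residual degrees of freedom, of which 1 library a side leaves none. GC trends were lowess fits (span 0.3, statsmodels 0.14.6) over all tested genes. Symbols, coordinates and transcript sequences came from GENCODE M21 on GRCm38, and promoters from RefSeq. Of 180 deposited member transcripts, 178 were in M21, 154 with the same length. Nuclear copies of mitochondrial genes were 15 genes matching one at 90% identity or more (BLAST 2.17.0), left out of nuclear TPM with the 37 mitochondrial genes. The scripts were tested on simulated counts. Alternatives were other scalings (total count, DESeq2 1.42.0 size factors, TMM over nuclear genes), GC and length corrections, filters, and the exact test of edgeR with a dispersion of 0.01.

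Members and gene lists were chosen with earlier results of these data known. In each role the 3 members with the highest and the 1 with the lowest mean nuclear TPM and those of the family ratios are given with values, in each group of the pathway list the 3 with the highest mean, and other members were named after their values were seen or as neighbours in a gene cluster.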

Additional observations from a re-analysis of the deposited data

How the results depend on the processing

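Called members (24 higher, 3 lower) came to 14 higher with GC and length trends both removed, to 0 lower with the GC trend of expressed transcripts removed or under total-count scaling, to 12 lower with the length trend removed and to 10 lower with no fold minimum. Over all genes the higher calls, 5236, were 1751 with GC and length, 1655 with the GC of expressed transcripts and 1924 with the annotated GC trend removed. The lower calls, 3990, were 1802, 1620 and 1790 in the same order, 6013 with no fold minimum and 571 under total-count scaling. The members' share of 1.74% was 0.705% in deposited TPM and 0.864% in nuclear counts, and 9 differing leading transcripts were 5 at 100 counts or more. From each library alone, the log2 family ratio ranged from -0.90 to 0.41 for Gsta4/Gsta3 and -0.08 to 1.88 for Gstm1/Gstm2. It ranged from -1.13 to 1.00 for Txn1/Txn2, -0.04 to 3.61 for Txnrd1/Txnrd2 and -0.56 to 1.70 for Hmox2/Hmox1. The sign turned in these 5 of 12. For Gstm1/Gstm2 (-0.08) and Txnrd1/Txnrd2 (-0.04) the negative value came with overlapping deposited intervals of the 2 genes. Of 46 log2 ratios 13 turned sign with the GC trend of expressed transcripts removed: Gsto1 (-0.42), Gsta3 (1.01), Gstt3 (-0.14), Mgst1 (0.47), Gpx3 (-0.84), Gpx8 (0.11), Gpx7 (-0.12), Prdx1 (0.21), Srxn1 (-0.63), Txn2 (-0.82), Txn1 (0.33), Sod2 (1.23) and Nqo1 (0.56). With the annotated GC trend removed 14 did: Gsto1 (-0.24), Gsta3 (1.33), Gstt3 (-0.70), Mgst1 (0.37), Gpx3 (-0.46), Gpx8 (0.28), Gpx7 (-0.68), Prdx1 (0.18), Prdx6 (-0.12), Srxn1 (-1.75), Txn1 (0.32), Txnrd1 (-0.29), Hmox2 (-0.55) and Nqo1 (0.55). With GC and length removed 11 did: Gsto1 (-0.64), Gsta3 (0.94), Gstt3 (-0.80), Gpx4 (-0.41), Gpx3 (-0.68), Gpx7 (-0.97), Prdx6 (-0.47), Srxn1 (-1.66), Txnrd1 (-0.17), Hmox2 (-0.83) and Nqo1 (0.31). With the length trend removed 10 did: Gstk1 (-0.24), Gstm2 (-0.01), Gstz1 (-0.31), Gsto1 (-0.97), Gstm5 (-0.77), Mgst2 (-0.98), Prdx3 (-1.01), Prdx6 (-0.68), Txnrd1 (-0.00) and Hmox2 (-0.37). Under total-count scaling 10 did: Gsta3 (1.08), Mgst1 (0.62), Gclc (0.14), Gsr (0.45), Gpx8 (0.05), Prdx4 (0.76), Txn1 (0.88), Cat (0.31), Sod2 (0.80) and Nqo1 (1.00). With DESeq2 size factors Prdx3 alone did (-0.04). The cause was not tested. TMM over nuclear genes, no count filter, a prior count of 2 and the exact test of edgeR turned none of the 46 ratios. No paired analysis was possible because there is 1 group. The 10 and 2 counts of Mgst3 and Gstt2 in replicate 1 limit their folds.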
